A study of Mus musculus with 22 samples.

Results

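Epididymal fat (epiWAT, the large visceral depot of the male mouse) was compared between mice carrying Gipr-/-S100a9-/- bone marrow and mice carrying Gipr-/- bone marrow. The 8 arrays of this comparison, 4 for each marrow, were taken by their titles from the 22 arrays of the study. All 22 came from male C57BL/6J marrow chimeras, mice whose blood-forming cells are replaced by transplanted marrow. The marrow was given 6 weeks to reconstitute, after which a diet with 60% of its calories from fat was fed for 14 weeks. Gipr encodes the receptor of the gut hormone GIP, and S100a9 encodes 1 chain of the S100A8/S100A9 alarmin of myeloid cells. Marrow of both groups thus carried the Gipr deletion, and the double-knockout marrow carried the S100a9 deletion as well. The comparison addresses what the loss of S100a9 adds in blood cells that already lack the GIP receptor. A further 4 arrays of epididymal fat with wild-type (WT) marrow, and 10 arrays of inguinal subcutaneous fat (ingWAT; 4 WT, 3 Gipr-/- and 3 double-knockout), are used below for reference. The recipients of WT and Gipr-/- marrow were WT animals, while for double-knockout marrow the sources used here do not name the recipient. Whether every array stands for its own animal is not stated, and p-values here describe array-to-array spread, which may be technical. In such chimeras the fat cells, vessels and connective tissue stay those of the recipient, as can some tissue macrophages, whose share was not measured.

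In obese visceral fat, marrow-derived monocytes become macrophages that gather around dying adipocytes and clear their lipid. These lipid-associated macrophages carry the lipid receptor TREM2, the tetraspanin CD9 and the glycoprotein GPNMB, together with lysosomal proteases and lipases that digest what they take up. S100A8 and S100A9 form a secreted heterodimer that binds the receptors TLR4 and RAGE. Adipocytes store fatty acids as triglyceride under the control of insulin, whose receptor acts through docking proteins of the IRS family.

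Whole-transcript Affymetrix arrays were used, and all levels below are the deposited log2 values; a difference is the mean of the 4 double-knockout arrays minus the mean of the 4 Gipr-/- arrays. A level belongs to its own probe set and cannot be set against the level of another gene. Of 14502 genes tested with limma's moderated test, 0 (0%) reached a Benjamini-Hochberg adjusted p under 0.05, and the lowest adjusted p was 0.143. The unadjusted p was under 0.05 for 1555 genes (10.7%), of which 765 (5.28%) were higher and 790 (5.45%) lower with double-knockout marrow. The difference was negative for 7294 genes (50.3%), and its median over all tested genes was -0.00365. In 455 genes (3.14%) every double-knockout array lay above every Gipr-/- array, and in 422 (2.91%) every one lay below. On the log2 scale 470 genes differed by more than 1 and 620 by less than -1, with a median SE of 0.31. When the score of epididymis genes described next was added to the fit as a covariate, 24 genes passed, 23 of them higher, and with all 22 arrays in 1 fit 1 gene passed, Myo1e. Because 0 genes passed, the values that follow are levels and differences in these 8 arrays, and a list of genes is read against the percentages just given.

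**Figure D1:**
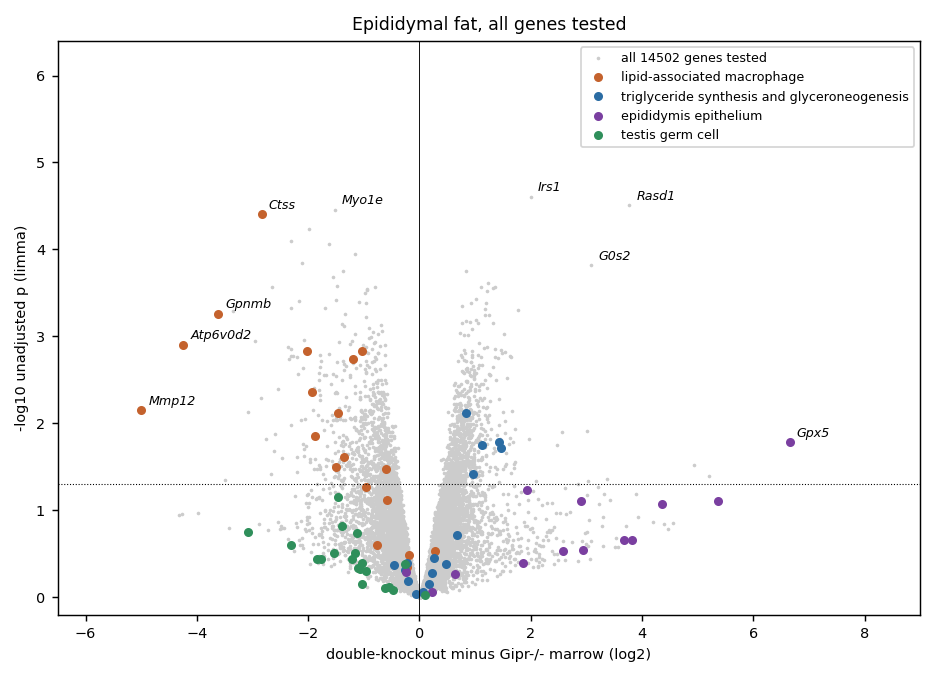
Difference between double-knockout and Gipr-/- marrow in epididymal fat (x axis, log2) against the unadjusted limma p (y axis, minus log10) for the 14502 tested genes, with 4 gene lists coloured and the dotted line at a p of 0.05. Lipid-associated macrophage genes lie on the left, with 18 of 19 below 0, and 1555 of all genes lie above the line.

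Several arrays stood apart in RNA of neighbouring tissue. A list's score is the mean of its members' values, each centred on the 12 epiWAT arrays. Over 13 tested epididymis genes the score was 6.09 in double-knockout array 1, 1.77 in double-knockout array 3 and 3.24 in WT array 2, against -2.71 to 0.71 in the others. Gpx5, a secreted epididymal peroxidase, read 18.94, 11.50, 6.17 and 6.32 in the double-knockout arrays and 3.77, 4.04, 4.32 and 4.21 in the Gipr-/- arrays. Testis germ cell genes scored 5.70 in Gipr-/- array 1, and the protamine gene Prm1 read 16.05 there against 6.32 to 8.31 in the other Gipr-/- arrays. Smooth muscle genes, listed after their values were seen, scored 3.03 in Gipr-/- array 1, 3.52 in Gipr-/- array 2 and 2.97 in double-knockout array 1, and between -2.19 and 0.54 in the other 9. The smooth muscle actin gene Actg2, chosen after its values were seen, read 17.64, 17.95, 8.43 and 12.75 in the Gipr-/- arrays and 17.27, 8.69, 8.66 and 5.08 in the double-knockout arrays. The prostaglandin synthase gene Ptgs2 had the same pattern, with 17.98, 17.76, 8.20 and 10.02 in the Gipr-/- arrays against 16.31, 8.14, 6.94 and 5.31. Most of the larger lists below are therefore also given without Gipr-/- array 1 and double-knockout array 1 (2 arrays left out), and without those and Gipr-/- array 2 (3 arrays left out). Both settings keep double-knockout array 3, and the imbalance in epididymis genes remains in them. The median difference of the epididymis list was 2.06 with 2 arrays left out (11 of 13 higher) and 1.69 with 3 left out (12 of 13 higher).

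**Figure D2:**
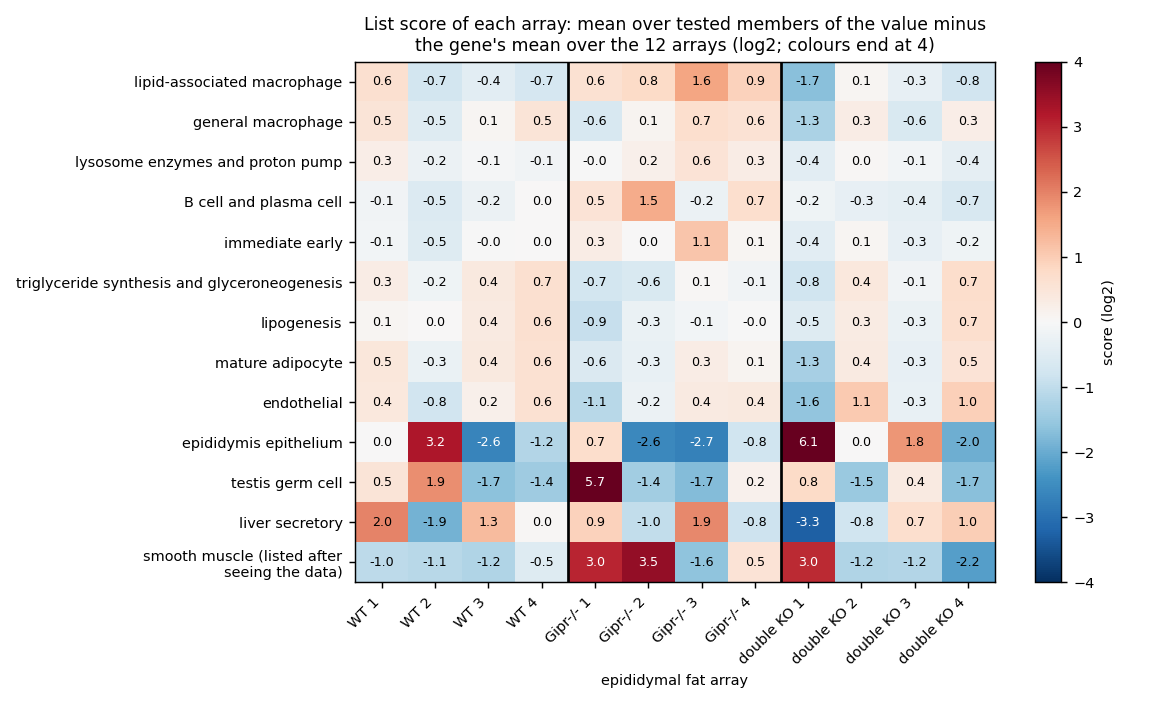
Scores of 13 gene lists (rows) in the 12 epididymal arrays (columns), each the mean of members centred on their mean over the arrays, with the colour scale ending at 4. Double-knockout array 1 is high for epididymis genes (6.09) and Gipr-/- array 1 for testis germ cell genes (5.70), and smooth muscle genes are high in 3 arrays.

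The labelled tissue was checked by its adipocyte products, which were measured in every array. Adiponectin (Adipoq) read 18.88, 18.89, 19.13 and 19.20 in the Gipr-/- group and 17.996, 19.06, 18.92 and 19.40 in the double-knockout group. Leptin (Lep), the satiety hormone of fat cells, read 18.22, 18.51, 18.67 and 18.75 against 15.44, 18.53, 17.79 and 18.21. Of 16 mature adipocyte genes 10 were lower, with a median of -0.21, which was 0.15 without double-knockout array 1. The lipid-associated macrophage list described below shares 3 of these 16 genes. The low leptin value is that of double-knockout array 1, in which the mature adipocyte score was also low, at -1.32.

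The targeted gene read low in both groups. S100a9 read 4.56, 4.77, 5.64 and 5.75 on the Gipr-/- arrays against 5.36, 5.07, 4.78 and 5.53 on the double-knockout arrays, a difference of 0.00 (SE 0.32). Its partner S100a8 read 5.39, 6.86, 7.80 and 7.06 against 3.74, 6.59, 5.93 and 4.80. The S100a8 groups overlapped, and the difference of -1.51 (SE 0.66) had an adjusted p of 0.437. The array reading of S100a9 did not separate the deleted group from the other, so it gives no check of the label. Tlr4, the alarmin receptor, differed by -0.67 (SE 0.42), and Ager, which encodes RAGE, by -0.17 (SE 0.24). Of 17 tested S100 genes and alarmin receptors, 8 were higher and 9 lower, with a median of -0.17 (-0.33 without Gipr-/- array 1 and -0.056 without double-knockout array 1). S100a1, a calcium sensor known best from muscle, stood out of the family. It read 9.07, 9.39, 9.51 and 9.07 in the Gipr-/- group and 10.38, 11.18, 10.41 and 11.003 in the double-knockout group, with no overlap and a difference of 1.48 (SE 0.36, limma adjusted p = 0.227). In inguinal fat S100a1 rose by 1.65 (limma adjusted p = 0.0444).

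Genes of lipid-associated macrophages were lower with double-knockout marrow as a body. Of 21 listed genes 19 were measured and tested; 18 were lower, the median difference was -1.35, and 13 (68.4%) had an unadjusted p under 0.05 in that direction, against 5.45% of all genes. In 8 of them the groups did not overlap, every double-knockout array lying below. The list was written with earlier results of these data known, and its members were read on the same arrays. These shares therefore describe the arrays and are no independent check. Without Gipr-/- array 1 and double-knockout array 1 the median was -1.15 with 17 of 19 lower, and without Gipr-/- array 2 as well it was -1.40 with 18 of 19 lower. The list score was 0.61, 0.76, 1.58 and 0.93 in the Gipr-/- arrays and -1.69, 0.07, -0.32 and -0.75 in the double-knockout arrays, so that no array of either group reached into the other. The WT arrays scored 0.63, -0.72, -0.43 and -0.66, across both ranges. In bulk fat, fewer macrophages and less of each RNA per macrophage cannot be told apart.

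The start regions of these genes were read from RefSeq to see which letters they share, and 13 of the 19 had a window in the RefSeq table of mouse build GRCm38.p6. The AP-1 type motif TGANTCA, searched on both strands from 250 bases before to 50 bases after the start, was found in 4 of the 13 (30.8%) and in 7.1% of the windows of all tested genes. The 4 windows are shown because they hold the match; they belong to Trem2, Gpnmb, Mmp12 and Itgax, all lower with double-knockout marrow. Capitals mark the match; Trem2 lies at chr17:48346151-48346450, Gpnmb at chr6:49036268-49036567, Mmp12 at chr9:7347124-7347423 (the second of 2 starts) and Itgax at chr7:128129300-128129599, all on the plus strand.
Trem2: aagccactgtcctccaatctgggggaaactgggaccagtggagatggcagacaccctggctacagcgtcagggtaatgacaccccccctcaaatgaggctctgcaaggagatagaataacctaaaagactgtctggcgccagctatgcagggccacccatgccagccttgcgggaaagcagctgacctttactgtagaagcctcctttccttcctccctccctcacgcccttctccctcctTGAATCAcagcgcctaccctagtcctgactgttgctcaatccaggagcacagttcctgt
Gpnmb: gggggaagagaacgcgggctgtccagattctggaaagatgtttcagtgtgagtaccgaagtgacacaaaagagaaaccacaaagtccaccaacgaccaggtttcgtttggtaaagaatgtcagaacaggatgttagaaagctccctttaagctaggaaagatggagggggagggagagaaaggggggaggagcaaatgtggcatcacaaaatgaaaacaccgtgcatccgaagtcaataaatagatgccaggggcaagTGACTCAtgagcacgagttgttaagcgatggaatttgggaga
Mmp12: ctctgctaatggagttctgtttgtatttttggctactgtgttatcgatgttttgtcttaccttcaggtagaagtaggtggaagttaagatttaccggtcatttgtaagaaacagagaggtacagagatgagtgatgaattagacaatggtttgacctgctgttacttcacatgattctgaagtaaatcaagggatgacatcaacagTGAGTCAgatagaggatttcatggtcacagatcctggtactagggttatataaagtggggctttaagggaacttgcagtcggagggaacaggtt
Itgax: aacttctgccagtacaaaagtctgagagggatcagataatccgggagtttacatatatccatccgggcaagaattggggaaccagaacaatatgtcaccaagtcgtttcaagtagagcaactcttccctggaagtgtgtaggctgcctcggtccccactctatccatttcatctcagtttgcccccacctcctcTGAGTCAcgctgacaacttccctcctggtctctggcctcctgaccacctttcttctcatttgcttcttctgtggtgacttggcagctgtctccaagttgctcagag
The match began at position -9 in Trem2, 8 in Gpnmb, -44 in Mmp12 and -56 in Itgax, counted from the start as 0. The same search found TGANTCA in 0 of 12 windows of the 15 genes with the smallest p on the higher side and in 0 of 12 on the lower side. Of the other motifs searched, CACGTG was in 2 of the 13 macrophage windows, the C/EBP type TTGCNNAA in 3 (10.9% of all tested genes) and the glucocorticoid receptor type in 0 (0.5%). A match of letters is a description of the window, and binding was not measured.

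Gpnmb, a membrane glycoprotein of lipid-laden macrophages, read 13.18, 13.78, 13.97 and 13.30 on the Gipr-/- arrays against 9.43, 11.50, 10.54 and 8.26 on the double-knockout arrays. The lowest Gipr-/- array was above the highest double-knockout array by more than the whole Gipr-/- range. The difference was -3.62 (SE 0.77, limma adjusted p = 0.203), and the WT arrays read 12.53, 9.73, 9.74 and 8.90. Trem2, the lipid receptor that defines these cells, read 8.63, 9.25, 9.15 and 8.32 against 6.29, 7.67, 7.31 and 6.02. No array overlapped, and the difference was -2.02 (SE 0.49, limma adjusted p = 0.227). The tetraspanin gene Cd9 read 11.29, 11.76, 11.81 and 11.97 against 10.59, 10.74, 11.15 and 10.25, also without overlap, and differed by -1.03 (SE 0.25).

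Mmp12, the macrophage elastase, had the largest difference on the list. It read 15.84, 15.24, 15.89 and 15.06 with Gipr-/- marrow, a tight and high group, and 5.94, 13.12, 13.31 and 9.64 with double-knockout marrow. The difference was -5.004 (SE 1.54, limma adjusted p = 0.296), with a wide spread among the double-knockout arrays. Atp6v0d2, which encodes a proton pump subunit of macrophages and osteoclasts, read 11.92, 11.97, 13.81 and 11.59 against 8.28, 9.36, 8.53 and 6.13. The groups were apart, with a difference of -4.25 (SE 1.01, limma adjusted p = 0.227). Ctss, the cathepsin of antigen-presenting cells, read 13.73, 13.72, 14.77 and 13.71 against 10.27, 11.73, 11.46 and 11.14. Its difference of -2.84 (SE 0.45) had the lowest adjusted p of the comparison, 0.143, as did Irs1, Rasd1 and Myo1e. Lipa, the lysosomal acid lipase, read 11.77, 11.97, 13.79 and 12.38 against 9.04, 11.06, 11.005 and 11.07, without overlap. Itgax, which encodes CD11c, read 6.64, 6.18, 7.54 and 6.52 against 4.55, 6.21, 5.45 and 4.77. Here double-knockout array 2 reached into the Gipr-/- range, and the difference was -1.47 (SE 0.46, limma adjusted p = 0.302).

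**Figure D3:**
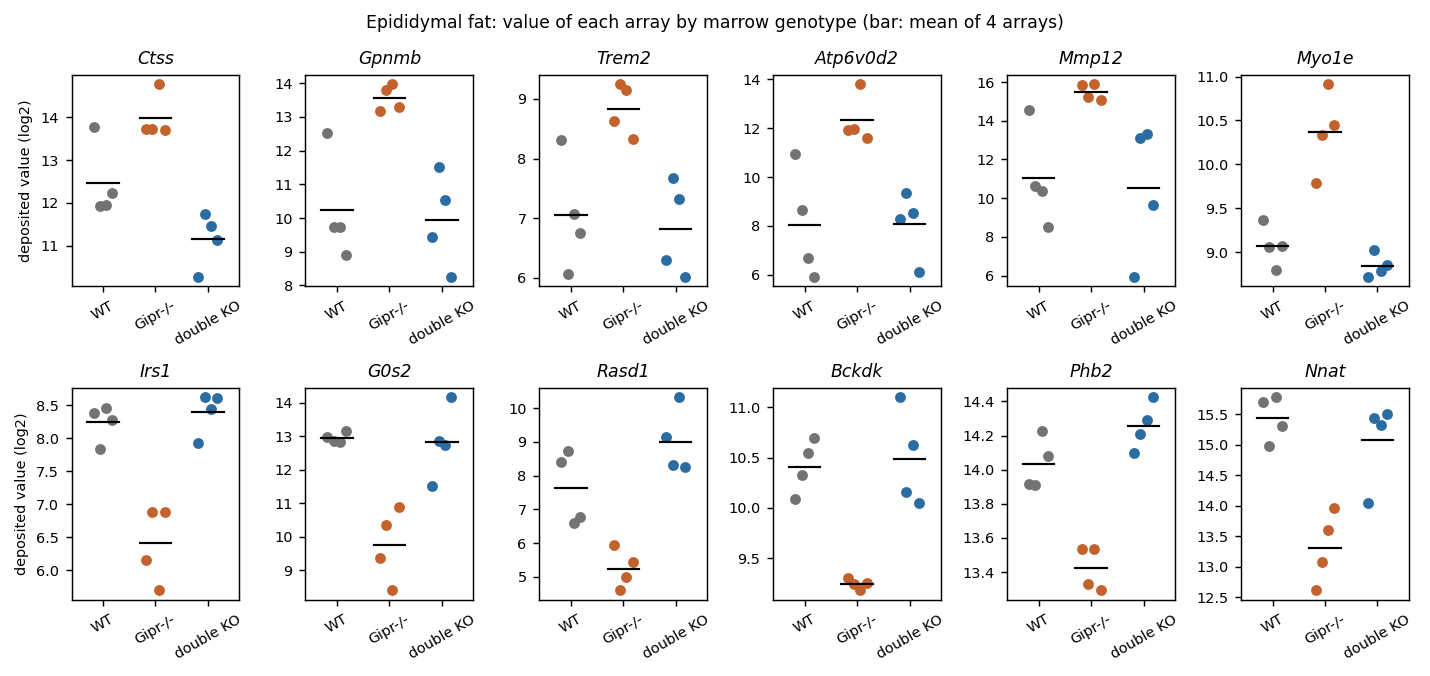
Deposited log2 value (y axis) of 12 genes in each epididymal array, by marrow (x axis: WT, Gipr-/-, double-knockout), with the bar at the mean of 4 arrays. Gpnmb, Trem2 and Atp6v0d2 are lower in all 4 double-knockout arrays than in any Gipr-/- array, and Irs1, G0s2 and Rasd1 are higher.

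Genes shared by macrophages in general were less evenly lower. Of 20 tested, 16 were lower with a median of -0.52, and 2 (10%) had an unadjusted p under 0.05 in that direction. The median was -0.83 without Gipr-/- array 1, -0.32 without double-knockout array 1, -0.59 with 2 arrays left out and -0.75 with 3 left out, with 16 of 20 lower in both of the last settings. Mrc1, the mannose receptor of resident macrophages, read 14.43, 15.91, 16.04 and 15.94 in the Gipr-/- group and 12.69, 15.01, 13.02 and 14.41 in the double-knockout group. Double-knockout array 2 overlapped the Gipr-/- range, and the difference was -1.79 (SE 0.52, limma adjusted p = 0.272). Adgre1, which encodes the F4/80 antigen, read 9.90, 10.42, 11.32 and 11.38 against 7.65, 10.13, 8.63 and 9.32, a difference of -1.82 (SE 0.57). Csf1r, the receptor for the macrophage growth factor CSF1, differed by -0.77 (SE 0.54). Cx3cr1, the fractalkine receptor, went the other way. It read 4.37, 4.54, 3.86 and 4.18 against 4.61, 5.43, 5.48 and 5.31, low in all arrays and higher by 0.97 (SE 0.25) without overlap.

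The digestive side of the macrophage programme was lower in part. Of 39 tested lysosomal enzymes and proton pump subunits, 26 were lower with a median of -0.21, and 12 had an unadjusted p under 0.05 in that direction. In 9 the groups did not overlap. Of the 39, 5 are also on the lipid-associated macrophage list and 3 on the fusion list below, so this list is not separate evidence. The median was -0.42, -0.41 and -0.36 without Gipr-/- array 1, double-knockout array 2 and double-knockout array 4. It was -0.32 with 2 arrays left out (27 of 39 lower) and -0.31 with 3 left out (28 of 39 lower). The cathepsins Ctsk and Ctsl differed by -1.79 (SE 0.44) and -1.19 (SE 0.30), and the protease legumain (Lgmn) by -0.95 (SE 0.21). The pump subunits Atp6v1c1 and Atp6v1a, which are not restricted to macrophages, differed by -0.93 (SE 0.23) and -0.89 (SE 0.25). The membrane protein gene Lamp1, present in lysosomes of all cells, differed by -0.01 (SE 0.19). The motif CACGTG, which holds the core of the lysosomal CLEAR element, was in 10 of 31 lysosome genes with a start window (32.3%) against 10.7% of all tested genes. Among 11 tested genes of macrophage fusion and osteoclast-type function, 8 were lower with a median of -0.55, and 4 of them had an unadjusted p under 0.05. These 4 were Atp6v0d2, Ctsk, Itgb3 and Mitf, while the fusion receptor gene Dcstamp differed by 0.20 (SE 0.48) and the osteoclast phosphatase gene Acp5 by -0.08 (SE 0.52). The fusion median was -0.36 without Gipr-/- array 2, -0.85 with 2 arrays left out and -0.58 with 3 left out.

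Receptors for opsonised particles leaned the same way with wide error. Of 21 tested Fc receptor and phagocytosis genes, 20 were lower with a median of -0.74, and 5 had an unadjusted p under 0.05. The general macrophage list shares 4 of these 21 genes. Fcgr4, a receptor for IgG, read 5.12, 6.57, 7.67 and 5.71 on the Gipr-/- arrays against 4.29, 5.37, 4.92 and 4.46 on the double-knockout arrays. The groups overlapped by 1 array on each side, and the difference was -1.51 (SE 0.49). Tyrobp, the adaptor through which TREM2 signals, differed by -1.35 (SE 0.52), and the oxidase subunit genes Cybb and Ncf1 by -1.31 (SE 0.50) and -1.37 (SE 0.51). In 0 of the 21 were the groups apart. The median was -0.41 without double-knockout array 1, -0.68 with 2 arrays left out and -0.86 with 3 left out, with 20 of 21 lower in both of the last settings. Of 16 complement genes, 14 were lower with a median of -0.49, and the anaphylatoxin receptor gene C3ar1 differed by -1.74 (SE 0.56). The C1q chain genes C1qa, C1qb and C1qc differed by -0.72 (SE 0.50), -0.95 (SE 0.49) and -0.75 (SE 0.50). The complement median was -0.83 without Gipr-/- array 1, -0.23 without double-knockout array 1 and -0.80 without double-knockout array 2. It was -0.42 with 2 arrays left out (13 of 16 lower) and -0.60 with 3 left out (15 of 16 lower).

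Chemokines and cytokines gave few separated genes. Of 24 tested monocyte and macrophage chemokines and their receptors, 18 were lower with a median of -0.50, but 2 had an unadjusted p under 0.05 on the lower side and 2 on the higher side. Ccl9, a chemokine made by macrophages, read 14.60, 14.84, 16.14 and 15.06 in the Gipr-/- group and 11.02, 14.10, 12.63 and 13.51 in the double-knockout group. No array overlapped, and the difference was -2.34 (SE 0.59, limma adjusted p = 0.229). Ccl2, the main monocyte attractant, differed by -1.41 (SE 0.79) and its receptor gene Ccr2 by -0.59 (SE 0.48). Among 16 inflammatory cytokine and NF-kB genes, 12 were lower with a median of -0.41. On the lower side 3 (18.8%) had an unadjusted p under 0.05, against 5.45% of all genes. In 2 every double-knockout array lay below, as in 2.91% of all genes. Il1rn, which encodes the interleukin 1 receptor antagonist, read 6.05, 7.12, 7.44 and 6.87 against 3.58, 5.94, 4.90 and 4.76. That is a difference of -2.08 (SE 0.48) without overlap, while Il1b itself differed by -0.58 (SE 0.33). Tnf and Il6 were under the level needed for testing, with means of 4.13 and 3.88 in the Gipr-/- group. Without double-knockout array 1 the medians were -0.23 for chemokines and -0.18 for cytokines, and without Gipr-/- array 3 the cytokine median was -0.22. With 2 arrays left out they were -0.40 (18 of 24 lower) and -0.34 (13 of 16 lower), and with 3 left out -0.38 (20 of 24) and -0.52 (12 of 16).

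B cell and plasma cell genes were also lower. Of 12 tested, 11 were lower with a median of -1.02, and 7 had an unadjusted p under 0.05. Cd22, an inhibitory B cell receptor, read 6.36, 7.25, 4.11 and 5.90 on the Gipr-/- arrays against 4.03, 3.75, 3.82 and 4.35 on the double-knockout arrays. Jchain, which joins secreted IgM and IgA, read 10.66, 9.87, 7.71 and 10.78 against 10.18, 6.46, 6.55 and 5.36. Cd79a, part of the B cell receptor, read 6.61, 9.68, 4.79 and 7.03 against 5.85, 5.68, 4.78 and 4.24. In these genes Gipr-/- array 3 was low and Gipr-/- array 2 high for Cd22 and Cd79a, and the groups overlapped. The list median was -0.64 without Gipr-/- array 2 and -1.10 with 2 arrays left out. With 3 arrays left out it was -0.62, and 1 of 11 tested genes had an unadjusted p under 0.05. Cd72 and Ms4a1, which encodes CD20, differed by -1.06 (SE 0.31) and -1.14 (SE 0.43) without overlap.

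Other immune lists were closer to the background. Of 17 T and NK cell genes, 13 were lower with a median of -0.27 (-0.46 to -0.16 with 1 array left out); the exception in size was Il7r, the interleukin 7 receptor gene, which read 9.54, 10.38, 11.14 and 9.32 against 7.69, 8.04, 8.28 and 7.13. The Il7r difference was -2.31 (SE 0.48, limma adjusted p = 0.199), while Cd3e and Cd8a differed by -0.54 (SE 0.37) and -0.15 (SE 0.46). Of 13 MHC class II genes 11 were lower with a median of -0.40 (-0.12 without double-knockout array 1), and the chain gene H2-Aa differed by -0.16 (SE 0.38). The medians were 0.15 over 9 dendritic cell genes, -0.14 over 7 mast cell genes, -0.19 over 8 type 2 immunity genes and 0.07 over 7 neutrophil genes, and the eosinophil and alternative activation gene Retnla differed by -0.28 (SE 0.51). With 1 array left out these 4 medians ran from -0.17 to 0.26, -0.51 to 0.44, -0.30 to -0.046 and -0.38 to 0.082. Csf3r, the granulocyte growth factor receptor gene, differed by -0.34 (SE 0.49). Of 20 interferon response genes 16 were higher with a median of 0.37. Without Gipr-/- array 1 the median was 0.047, with 10 higher and 10 lower, and without double-knockout arrays 2 and 4 in turn it was 0.14 and 0.17. It was 0.65 and 0.66 without Gipr-/- array 3 and double-knockout array 1, 0.35 with 2 arrays left out (16 of 20 higher) and 0.33 with 3 left out (17 of 20). Of these genes only Irf9, a subunit of the interferon-activated factor ISGF3, had an unadjusted p under 0.05, with a difference of 1.001 (SE 0.42). Irf7 differed by 1.31 (SE 0.61), and the score of Gipr-/- array 1 was the lowest of its group at -1.36.

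Double-knockout array 1, the array richest in epididymis RNA, had the lowest lipid-associated macrophage score and the lowest general macrophage score, -1.69 and -1.26. A fit with the epididymis score as a covariate gave list medians of -0.99 for lipid-associated macrophages, -0.26 for lysosome genes, -0.09 for general macrophages and -0.27 for Fc receptors. It gave 0.01 for complement, -0.06 for chemokines, 0.03 for cytokines and -1.05 for B cells. Lists of adipocytes, metabolism and vessels moved up in the same fit. Triglyceride synthesis went from 0.24 to 0.66, lipogenesis from 0.47 to 0.74 and branched-chain amino acid breakdown from 0.33 to 0.65. Mature adipocyte genes went from -0.21 to 0.41 and endothelial genes from 0.22 to 1.06. The covariate is highest in 1 array of the 4.

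Matrix genes were lower by small amounts, with a few large members. Of 16 collagens 13 were lower with a median of -0.59, and 0 had a limma unadjusted p under 0.05 in either direction. The fibrillar collagen genes Col1a1 and Col3a1 differed by -0.54 (SE 0.37) and -0.82 (SE 0.40). Of 19 matricellular genes and TGF-beta targets, 17 were lower with a median of -0.44, and 4 had an unadjusted p under 0.05. Ccn1, a secreted matricellular protein gene, read 14.87, 14.06, 15.98 and 14.86 in the Gipr-/- group and 11.67, 12.97, 12.98 and 13.49 in the double-knockout group. The difference was -2.16 (SE 0.44, limma adjusted p = 0.195) without overlap. Thrombospondin 1 (Thbs1), an activator of latent TGF-beta, read 13.68, 13.31, 15.85 and 13.75 against 9.85, 13.26, 11.81 and 13.29, the groups being apart by a narrow margin. Periostin (Postn), a matrix protein of remodelling tissue, read 13.29, 13.88, 14.47 and 14.14 against 11.51, 13.16, 11.89 and 13.17, a difference of -1.52 (SE 0.43). Of 19 cross-linking enzymes and proteases 17 were lower with a median of -0.52. Beside Mmp12 these included stromelysin (Mmp3) at -2.05 (SE 0.66), the protease inhibitor Timp1 at -1.13 (SE 0.42) and lysyl oxidase (Lox) at -1.38 (SE 0.62). Collagen and matricellular medians were -0.18 and -0.05 with the epididymis covariate. The collagen median was -0.35 without double-knockout array 1, -0.37 without Gipr-/- array 4, -0.53 with 2 arrays left out and -0.57 with 3 left out. The matricellular median was -0.72 and -0.26 without Gipr-/- arrays 1 and 4 in turn, and -0.21 and -0.75 without double-knockout arrays 1 and 4. It was -0.50 with 2 arrays left out and -0.41 with 3 left out, with 16 of 19 lower in each; for cross-linking genes these were -0.49 and -0.58.

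Immediate early genes, which respond to stimuli within minutes and also to handling of tissue, were lower. Of 23 tested, 19 were lower with a median of -0.40, and 7 had an unadjusted p under 0.05. Nr4a3, a nuclear receptor of this class, read 8.46, 7.49, 8.18 and 7.35 on the Gipr-/- arrays against 6.07, 6.34, 6.20 and 6.05 on the double-knockout arrays. The double-knockout arrays were close together and all below, with a difference of -1.70 (SE 0.36, limma adjusted p = 0.199). Atf3, a stress-induced repressor, differed by -1.81 (SE 0.51) without overlap, and Egr1 by -1.31 (SE 0.46) with overlap. Of 24 cell cycle genes 20 were lower with a median of -0.51 and 8 had an unadjusted p under 0.05. With 2 arrays left out the immediate early median was -0.41 (17 of 23 lower) and with 3 left out -0.61 (20 of 23). The cell cycle median was -0.29 without double-knockout array 1, -0.17 with 2 arrays left out (15 of 24 lower) and -0.35 with 3 left out (17 of 24). Gipr-/- array 1 is the one rich in germ cell RNA, and the germ cell list had a median of -1.12 over 20 tested genes. Without that array the germ cell median was 0.31, with 12 higher and 5 lower. The cell cycle median ran from -0.62 to -0.29 with 1 array left out. A link between germ cell RNA and the cell cycle genes was not tested.

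Glucocorticoid-responsive genes split in direction. Of 17 tested, 12 were lower with a median of -0.61, which was -0.33 without double-knockout array 1, -0.50 with 2 arrays left out and -0.82 with 3 left out. The metallothionein gene Mt2 read 18.61, 18.52, 19.37 and 18.79 in the Gipr-/- group and 16.60, 17.63, 17.52 and 17.72 in the double-knockout group, and its difference was -1.45 (SE 0.34). Errfi1, a feedback inhibitor of the EGF receptor, read 14.68, 13.82, 15.63 and 13.66 against 11.87, 11.63, 11.74 and 11.92. The double-knockout arrays of Errfi1 lay within a narrow band below every Gipr-/- array, with a difference of -2.66 (SE 0.52, limma adjusted p = 0.192). Rasd1, the dexamethasone-induced Ras-like gene, went the other way. It read 5.94, 4.61, 4.996 and 5.42 on the Gipr-/- arrays against 9.14, 8.31, 10.32 and 8.25 on the double-knockout arrays, a gap wider than either group. The Rasd1 difference of 3.76 (SE 0.58) had an adjusted p of 0.143, and the WT arrays read 8.39, 8.72, 6.603 and 6.76. Fkbp5 and Tsc22d3, classical targets of the receptor, differed by -0.97 (SE 0.61) and -0.76 (SE 0.53).

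Genes of insulin action were led by 1 member. Irs1, the docking protein of the insulin receptor in adipocytes, read 6.16, 6.88, 5.70 and 6.89 with Gipr-/- marrow, 7.93, 8.62, 8.44 and 8.62 with double-knockout marrow and 8.39, 7.84, 8.46 and 8.29 with WT marrow. The Gipr-/- arrays were lower than all 8 others, and the difference of 2.00 (SE 0.30) had a limma adjusted p of 0.143. The adipocyte docking protein gene Irs3 differed by 1.43 (SE 0.65) with overlapping groups, and Irs2 by -0.22 (SE 0.36). Insr and Akt2, the receptor and the kinase downstream of it, differed by 0.34 (SE 0.19) and 0.53 (SE 0.34). Over the 23 tested insulin signalling genes, 14 were higher, the median was 0.15 and 3 had an unadjusted p under 0.05. The median was 0.26 without double-knockout array 1, 0.093 without double-knockout array 4, 0.23 without Gipr-/- array 2, 0.15 with 2 arrays left out (14 of 23 higher) and 0.11 with 3 left out (15 of 23).

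Fat storage and release genes had no common direction but some large members. G0s2, the inhibitor of the lipase ATGL, read 9.35, 10.36, 8.40 and 10.88 in the Gipr-/- group and 11.52, 12.87, 12.75 and 14.16 in the double-knockout group. The groups were apart, with a difference of 3.08 (SE 0.56, limma adjusted p = 0.192), and the WT arrays read 12.99, 12.87, 12.82 and 13.16. Pnpla2, which encodes ATGL, differed by 0.05 (SE 0.46) and Lipe, the hormone-sensitive lipase gene, by 0.35 (SE 0.42). Abhd5, the coactivator of ATGL, differed by -0.56 (SE 0.17) without overlap, and the droplet coat gene Plin2 by -1.88 (SE 0.65) with overlap. Of 20 lipolysis and droplet genes 10 were higher and 10 lower, and the median ran from -0.24 to 0.38 with 1 array left out.

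Of 16 tested triglyceride synthesis genes, 11 were higher with a median of 0.24, and 5 (31.2%) had an unadjusted p under 0.05 in that direction. Pck1, the enzyme of glyceroneogenesis, read 12.40, 12.03, 14.57 and 13.17 on the Gipr-/- arrays against 13.89, 14.45, 14.18 and 15.52 on the double-knockout arrays. Gipr-/- array 3 overlapped, and the difference was 1.47 (SE 0.54). Gpam and Gpat3, which encode acyltransferases of the first step, differed by 1.12 (SE 0.41) and 1.43 (SE 0.51), and Agpat3 by 0.83 (SE 0.26) without overlap. The last acyltransferase of the pathway, Dgat2, differed by -0.26 (SE 0.37). The median was 0.61, 0.077 and 0.15 without double-knockout arrays 1, 2 and 4 in turn. It was 0.49 with 2 arrays left out (14 of 16 higher) and 0.22 with 3 left out, where 11 of 16 were higher and 2 had an unadjusted p under 0.05. Of 14 lipogenesis genes 9 were higher with a median of 0.47. That median was 0.12 without Gipr-/- array 1, 0.30 and 0.039 without double-knockout arrays 2 and 4, 0.41 with 2 arrays left out and 0.33 with 3 left out. Fatty acid synthase (Fasn) differed by 0.89 (SE 0.45) and Scd1 by -0.04 (SE 0.20). Cebpa, a regulator of adipocyte identity, read 11.06, 11.66, 12.28 and 11.90 against 11.38, 13.34, 12.44 and 14.26, with overlap in double-knockout array 1.

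Secreted factors of adipocytes were mixed with several higher members, and the receptors were split evenly. Of 19 adipokines 11 were higher and 8 lower, with a median of 0.40. On the higher side 5 had an unadjusted p under 0.05, and on the lower side 0. The median was 0.23 and 0.24 without Gipr-/- arrays 1 and 3 in turn, 0.14 without double-knockout array 4, 0.38 with 2 arrays left out (12 of 19 higher) and 0.67 with 3 left out (11 of 19). Nnat, an imprinted gene of adipocytes and neurons, read 12.62, 13.08, 13.60 and 13.96 in the Gipr-/- group and 14.05, 15.44, 15.32 and 15.51 in the double-knockout group. The groups were apart by a small margin at double-knockout array 1, and the difference was 1.76 (SE 0.37, limma adjusted p = 0.199). Apelin (Apln) differed by 1.39 (SE 0.48), Vegfa by 0.70 (SE 0.32) and angiotensinogen (Agt) by 1.66 (SE 0.51). Apln and Vegfa were chosen after their values were seen, and leptin, on the same list, differed by -1.05. The 12 tested adipocyte G-protein receptor genes were split evenly, with 6 higher and a median of -0.05 (-0.25 to 0.29 with 1 array left out). Ffar4, a receptor for long-chain fatty acids, differed by 1.06 (SE 0.37), Npr3 by -0.93, and Gipr by -0.49 (SE 0.40) at a mean of 5.38 and 4.88.

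Mitochondrial genes differed one by one more than as groups. Of 21 genes of branched-chain amino acid breakdown 17 were higher with a median of 0.33. That median was 0.055 without Gipr-/- array 1, 0.19 and 0.14 without double-knockout arrays 2 and 4, 0.22 with 2 arrays left out (15 of 21 higher) and 0.12 with 3 left out (13 of 21). Bckdk, the kinase that shuts off the branched-chain ketoacid dehydrogenase, read 9.31, 9.24, 9.19 and 9.25 on the Gipr-/- arrays against 11.10, 10.16, 10.62 and 10.05 on the double-knockout arrays. The Gipr-/- arrays spanned a very narrow range below the others, and the difference was 1.23 (SE 0.24, limma adjusted p = 0.192). Phb2, the inner membrane prohibitin gene, read 13.53, 13.33, 13.53 and 13.29 against 14.10, 14.21, 14.29 and 14.42, likewise apart, with a difference of 0.83 (SE 0.16). Its partner gene Phb differed by -0.09 (SE 0.20). Of 26 oxidative phosphorylation genes 20 were higher with a median of 0.14, and Ndufs7, a complex I subunit, differed by 0.82 (SE 0.26) without overlap. Of 19 tricarboxylic acid cycle genes 13 were higher with a median of 0.22, and 0 had a limma unadjusted p under 0.05. Ppargc1a, the coactivator of mitochondrial biogenesis, read 6.51, 6.62, 6.02 and 7.51 against 7.79, 7.88, 9.62 and 7.91, higher in all 4 arrays by 1.63 (SE 0.57). Fatty acid oxidation, glycolysis and thermogenic lists had medians of -0.01, -0.01 and 0.03. The oxidative phosphorylation median was 0.29 and -0.022 without double-knockout arrays 1 and 4 in turn, 0.30 with 2 arrays left out and 0.13 with 3 left out, with 20 of 26 higher in both of the last settings. The tricarboxylic acid cycle median ran from 0.046 (without double-knockout array 4) to 0.31 with 1 array left out, and was 0.21 with 2 arrays left out and 0.13 with 3 left out.

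**Figure D4:**
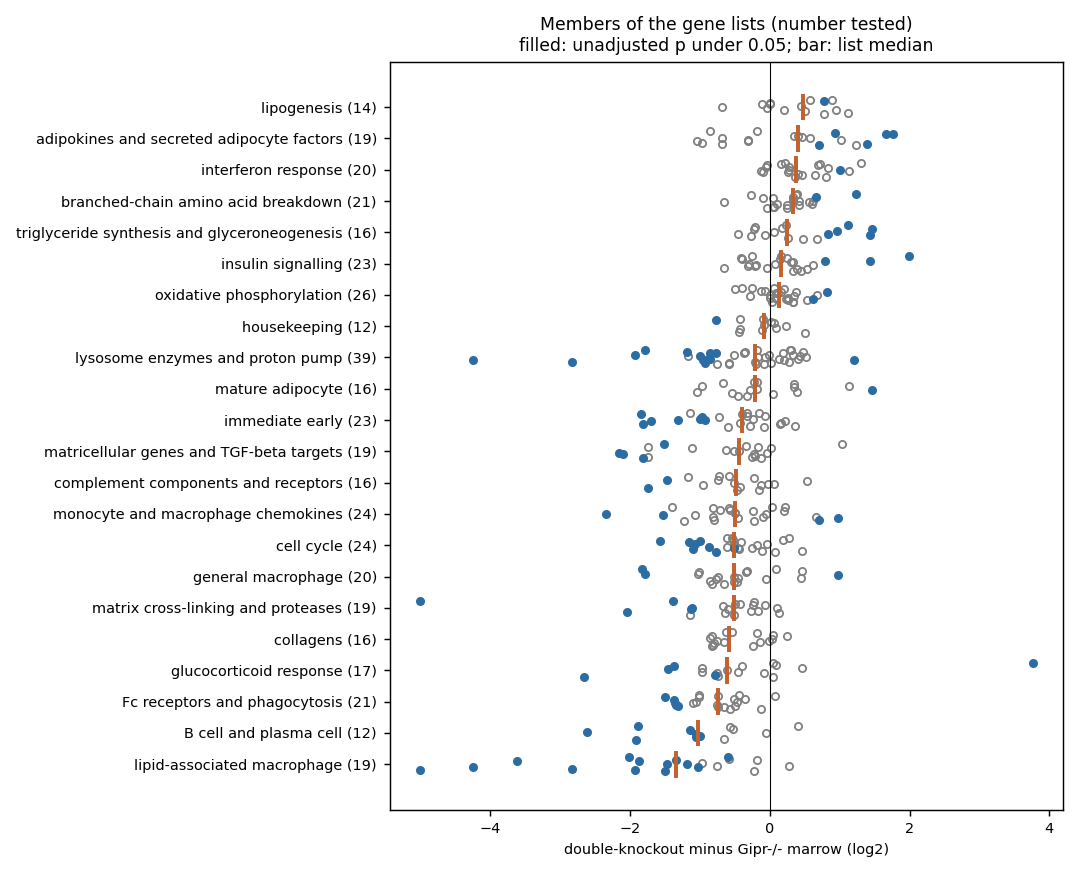
Difference between double-knockout and Gipr-/- marrow (x axis, log2) for each tested member of 22 gene lists (y axis), filled where the unadjusted limma p is under 0.05, with a bar at the list median. Lipid-associated macrophage genes have a median of -1.35, with 18 of 19 below 0.

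Stress, clock and housekeeping lists had medians near 0 over all 8 arrays. The unfolded protein and integrated stress median was -0.28 with 2 arrays left out (15 of 23 lower) and -0.31 with 3 left out (16 of 23). With 1 array left out it ran from -0.16 to 0.032. Over all 8 arrays the medians were -0.14 over 23 unfolded protein and integrated stress genes, -0.09 over 21 oxidative stress genes and -0.05 over 20 cholesterol genes. They were 0.04 over 15 clock genes and -0.09 over 12 housekeeping genes. Asns, the asparagine synthetase gene, stood out of the stress list with 12.06, 11.92, 11.98 and 12.53 against 12.88, 13.23, 13.12 and 13.36, a difference of 1.02 (SE 0.21). Nceh1, a cholesterol ester hydrolase of macrophages, read 11.28, 11.84, 12.40 and 11.44 against 9.41, 9.82, 9.79 and 8.73, and its difference was -2.30 (SE 0.39, limma adjusted p = 0.179). Endothelial genes had a median of 0.22, adipose progenitor genes -0.04, skeletal muscle genes -0.16 and mesothelial genes 0.55; with 1 array left out the endothelial median ran from -0.21 to 0.72 and the mesothelial one from -0.029 to 0.94. Among 11 developmental genes of the epididymal depot 7 were higher and 4 lower, with a median of 0.73 (0.41 without Gipr-/- array 1). The homeobox genes Hoxa5 and Hoxc4 differed by 1.05 (SE 0.45) and 0.87 (SE 0.28). Hoxc10 went the other way at -1.10, and at -2.28 with 3 arrays left out. Liver secretory genes had a median of -0.93, and their score was lowest in double-knockout array 1, at -3.27. Without that array the liver median was 0.031, and with 2 arrays left out it was 0.33. Albumin (Alb) read 16.73, 13.44, 17.11 and 13.72 in the Gipr-/- group and 9.46, 13.55, 15.37 and 16.46 in the double-knockout group. Of 7 tested Schwann cell and nerve genes 3 were higher and 4 lower, with a median of -0.0015, so the list had no common direction. Its adhesion gene Cdh19 read 5.47, 6.83, 6.49 and 6.18 against 4.80, 4.82, 4.50 and 4.86, a difference of -1.50 (SE 0.31) without overlap.

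The 15 genes with the smallest p in each direction were mixed in function. The higher ones were Irs1, Rasd1, G0s2, Phb2, Bckdk, Zfyve19, Rhbdl1, 2300009A05Rik, Elmo3, Asns, Zfp637, Nudt22, Isca2, Lratd2 and Nnat, with differences from 0.77 (Isca2) to 3.76 (Rasd1). The lower ones were Myo1e, Ctss, Tnfrsf12a, Nceh1, Pde7a, Mtcl1, Glipr1, Gm13547, B3gnt5, Slfn2, Errfi1, Hnrnpc, Tax1bp1, Cdv3 and Eif1a, with differences from -2.84 (Ctss) to -0.80 (Hnrnpc). Myo1e, an unconventional myosin at the membrane, read 9.78, 10.33, 10.91 and 10.44 on the Gipr-/- arrays against 8.72, 9.03, 8.79 and 8.85 on the double-knockout arrays. It differed by -1.52 (SE 0.24, limma adjusted p = 0.143). Tnfrsf12a, the receptor of the cytokine TWEAK, read 10.83, 10.10, 11.55 and 10.53 against 7.96, 9.05, 8.98 and 9.10, a difference of -1.98 (SE 0.33, limma adjusted p = 0.169). Slfn2, a regulator of immune cell quiescence, read 9.84, 10.27, 10.95 and 10.32 against 8.22, 8.97, 9.12 and 9.16. The RNA-binding protein gene Hnrnpc read 12.86, 12.73, 12.82 and 12.77 against 11.91, 11.95, 11.84 and 12.26, a small but even difference. In all 30 of these genes every double-knockout array lay on 1 side of every Gipr-/- array. The 30 were chosen by p on these same arrays, so their separation is no further evidence. Among all tested genes the groups were apart in 3.14% (higher) and 2.91% (lower).

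The WT arrays lay with the double-knockout arrays for most of these 30 genes, a comparison that shares both groups of arrays and so adds no separate evidence. Of the 15 higher genes, WT was above every Gipr-/- array in 13 and overlapped the double-knockout arrays in 13. Of the 15 lower genes, WT was below every Gipr-/- array in 11 and overlapped the double-knockout arrays in 11. Phb2 read 13.91, 13.91, 14.22 and 14.08 in the WT arrays, and Myo1e read 9.37, 9.06, 8.79 and 9.06. For the lipid-associated macrophage list the median difference of Gipr-/- from WT was 1.08, and that of double-knockout from WT was -0.28. For B cell genes these medians were 0.81 and -0.12, for triglyceride synthesis -0.48 and -0.16, and for general macrophages -0.01 and -0.47.

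Inguinal fat, whose arrays do not enter the epididymal comparison, gave the same contrast in other RNA; the sources used here do not say if they came from the same mice. There 505 genes (3.48%) passed the adjusted threshold. Of 13872 genes tested in both depots, 7263 (52.4%) had the same sign. Among these 13872, 384 passed as lower in inguinal fat and 119 as higher. The counts of passing genes below are to be read against that lean to the lower side. Among the genes with an unadjusted p under 0.05 and lower in epididymal fat, 473 of 777 (60.9%) had the same sign in inguinal fat; 56 of them passed the test there and 53 of those 56 were also lower. Among the higher ones, 378 of 750 (50.4%) had the same sign, and 21 passed the test in inguinal fat, 9 of them in the same direction. Of 19 lipid-associated macrophage genes 18 had the same sign in both depots, and 5 fell in inguinal fat, where the list median was -0.72. These were Lipa (-1.51, limma adjusted p = 0.026), Ctsl (-1.75), Atp6v0d2 (-4.02), Plin2 (-1.07) and Lgals3 (-2.28), while Gpnmb and Ctss differed there by -1.22 and -0.26 without passing. Of 19 matricellular genes 18 had the same sign, and 6 fell in inguinal fat, among them Thbs1 (-4.63, limma adjusted p = 0.00529), Ccn1 (-3.18) and Postn (-1.91). The genes Mrc1 (-1.68), Ccl9 (-2.43), Tnfrsf12a (-2.46) and Mt2 (-2.77) also fell there. G0s2 rose in inguinal fat by 4.22 (limma adjusted p = 0.0284), Rasd1 by 4.36 (limma adjusted p = 0.0423) and Cebpa by 1.51 (limma adjusted p = 0.0317). B cell genes ran the other way, with 1 of 12 of the same sign and a median of 2.82 in inguinal fat, where lymph node stroma genes had a median of 5.55.

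**Figure D5:**
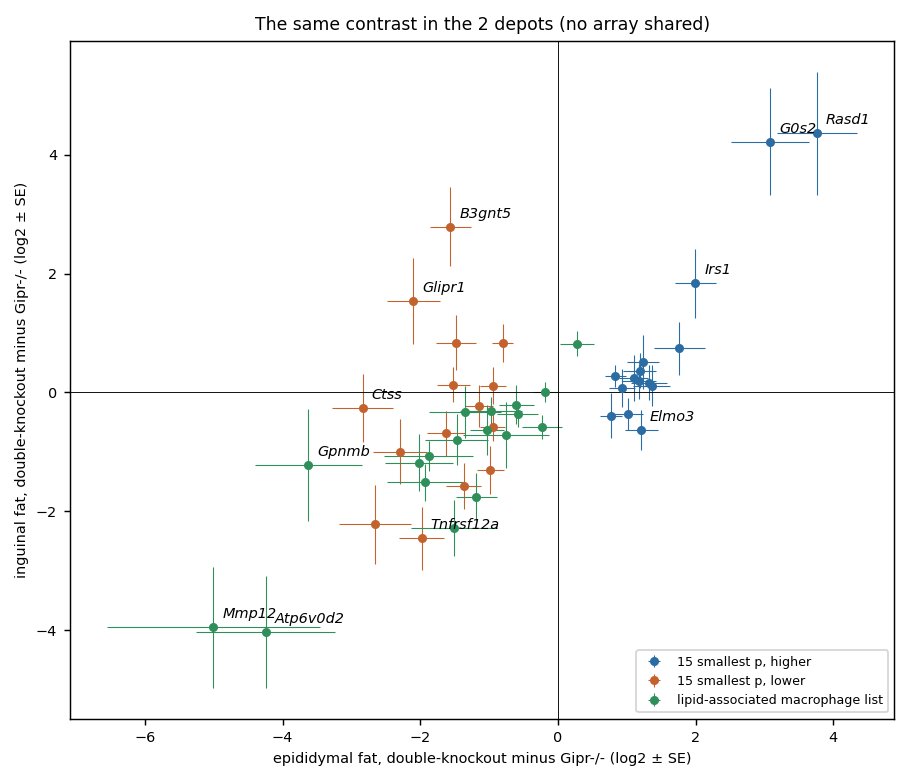
Difference between double-knockout and Gipr-/- marrow in epididymal fat (x axis, log2) against the same in inguinal fat (y axis, log2), with bars of 1 SE, for the 30 named genes and the lipid-associated macrophage genes. Rasd1 and G0s2 are higher in both depots and Atp6v0d2 and Mmp12 lower in both, while B3gnt5 is lower in epididymal and higher in inguinal fat.

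A test of the difference between depots (epididymal minus inguinal, 22 arrays in 1 limma fit) passed for 104 genes (0.717%), 54 with a positive and 50 with a negative value. Of the 30 genes named above 5 passed. The 30 were chosen by their p in epididymal fat, whose difference is part of this test, so the 5 are no separate evidence. Myo1e differed between depots by -1.65 (limma adjusted p = 0.038), with -1.52 in epididymal fat and 0.13 in inguinal fat. B3gnt5, a glycosyltransferase of lacto-series glycolipids, differed by -4.35 (limma adjusted p = 0.0163), with -1.56 in epididymal fat and a rise of 2.79 in inguinal fat. Glipr1 differed by -3.64 (limma adjusted p = 0.0499), Hnrnpc by -1.64 (limma adjusted p = 0.0282) and Elmo3 by 1.84 (limma adjusted p = 0.0313). Beside B3gnt5, the 5 smallest p in each direction were those of the ribosomal protein genes Rpsa (-2.49) and Rpl7 (-2.18), the histone genes H4c12 (-2.42) and H4c3 (-2.45), and, with positive values, Surf4 (1.77), Slc16a12 (3.27), Fbxl4 (1.87), Gpc4 (2.47) and Cers4 (2.84). The count moved with single arrays. It was 5 without inguinal Gipr-/- array 2, 26 without inguinal Gipr-/- array 1, 7 without inguinal double-knockout array 1, 21 without array 3 of that group and 543 without its array 2. It was 29 without epididymal Gipr-/- array 1, 35 without array 4 of that group, 259 without epididymal double-knockout array 1, and 47, 58 and 51 without arrays 2, 3 and 4 of that group.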

How the data were processed

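Total RNA of epididymal and inguinal fat (100 ng per array, per the labels' protocols) was measured on 1-colour Affymetrix whole-transcript arrays. The authors deposited 1 table of log2 values, 21793 features by 22 arrays, with Partek 6.6 named in the submitters' processing notes. The log base, the background correction, the normalization and the genome build are not given in the sources used here, so a difference is in log2 units only on that reading. The number of arrays limits the precision.

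GEO's platform annotation gave 1 gene symbol for 19341 features, and the other 2452 were not used. Where a gene had 2 features (4 genes), the one that read higher on average was taken, leaving 19337 genes. The lowest 25% by mean (under 4.33) were left out, leaving 14502. The 3 epididymal groups were fitted together with limma 3.58.1 (R 4.3.3; lmFit and eBayes with a trend), with Benjamini-Hochberg adjustment over all tested genes and a threshold of 0.05. Inguinal fat was fitted apart, and the difference between depots came from 1 fit of 22 arrays. The code was tested on simulated data. No 2 arrays held identical values.

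The groups of arrays, the gene lists and the comparison were chosen with earlier results of these data known. The named genes are Gipr, S100a8, S100a9, the 15 smallest p per direction, each list's lead genes with up to 2 more members by p, and the 5 smallest p per direction between depots. Actg2, Apln, Atp6v1a, Atp6v1c1, C1qc, Ctsl, Cybb, Itgb3, Lgals3, Mitf, Ptgs2 and Vegfa lie outside this rule and were chosen after their values were seen. Alternatives covered the filter, the trend, array weights, scaling, the groups in the fit, an epididymis covariate and single arrays; leaving out 3 smooth-muscle-rich arrays was added after seeing the data.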

Additional observations from a re-analysis of the deposited data

Results flagged for a closer look

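Among the named genes and lists, single arrays stood far from the other 3 of their group in 36 of 586 gene-by-group checks and 4 of 108 list-by-group checks; chance gives about 1 in 20. Dixon's ratio of gap to range was used.

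In the Gipr-/- group, array 1 was the distant one for Mrc1 (14.43), C5ar1 (6.57), Hspd1 (12.64), Il4ra (10.37), Me1 (14.8), Hadh (13.07), Prdm16 (3.95), Otop1 (5.91) and the interferon response list (-1.36). Array 2 was distant for B3gnt5 (7.24), Mmp9 (7.37) and the mast cell list (1.26). Array 3 was distant for Ctss (14.77), Ccl7 (10.89), Fos (10.12), Il1r1 (13.41) and Mbp (9.74), and it was the high one for each of these genes.

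In the double-knockout group, array 1 was distant for Nnat (14.05), Tnfrsf12a (7.96), H2-Aa (14.67), Lox (8.55), Per2 (6.02), Atf4 (14.13), Esam (7.27), Acly (15.79), Dlst (8.09), Lipa (9.04), Elf5 (8.38), Hp (16.18) and the type 2 immunity list (0.1). Array 2 was distant for Cpt1a (11.48), Phb (14.35) and Irs2 (12.64), and array 3 for Cdh19 (4.5) and Ppargc1a (9.62). Array 4 was distant for Isg15 (6), Hk2 (10.36), Ccr3 (4.74), Nr4a1 (6.18) and the mitochondrial chaperone list (0.35).

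The effect of the double-knockout marrow differed between the depots (limma interaction, adjusted p under 0.05; epididymal minus inguinal difference) for 18 of the named genes. Of these, Surf4, Slc16a12, Fbxl4, Gpc4, Cers4, B3gnt5, Rpsa, H4c12, H4c3 and Rpl7 were named for their smallest p in this very test. Elmo3, Myo1e, Glipr1 and Hnrnpc were named for their p in epididymal fat, and so was Afg3l2 within its list. The epididymal difference is part of this test. The count of 18 is therefore no evidence. Positive values were those of Elmo3 (1.84), Ccn2 (2.82), Cpt1a (1.78), Afg3l2 (1.45), Surf4 (1.77), Slc16a12 (3.27), Fbxl4 (1.87), Gpc4 (2.47) and Cers4 (2.84). Negative values were those of Myo1e (-1.65), Glipr1 (-3.64), B3gnt5 (-4.35), Hnrnpc (-1.64), Cxcl13 (-6.59), Rpsa (-2.49), H4c12 (-2.42), H4c3 (-2.45) and Rpl7 (-2.18). Ccn2, a matricellular TGF-beta target, differed by -0.18 in epididymal fat and fell in inguinal fat (-2.999, limma adjusted p = 0.00529). Cxcl13, a B cell attractant of lymphoid tissue, differed by -1.22 in epididymal fat and rose in inguinal fat by 5.37 (limma adjusted p = 0.0237), where lymph node stroma genes had a median of 5.55.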

How the results depend on the processing

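The count of 0 genes in epididymal fat stayed 0 under the filters, scalings, array weights, the fit of 2 groups, each array left out (0 to 0) and the 3 arrays left out together (added after seeing the data; lowest limma adjusted p 0.404). It was 1 with all 22 arrays in 1 fit (Myo1e, limma adjusted p = 0.0465) and 24 with the epididymis covariate (lowest 0.0297). The count of unadjusted p under 0.05 ran from 1122 to 2475. The 104 genes that differed between depots became 69 with no filter and 927 with array weights, and 5 to 543 with 1 array left out; the cause was not tested. With the epididymis covariate, list medians moved to 0.031 (cytokines, from -0.41), 0.13 (type 2 immunity, from -0.19), -0.049 (matricellular, from -0.44), -0.28 (Schwann cell, from 0.00), 0.48 (oxidative phosphorylation, from 0.14), -0.074 (glucocorticoid, from -0.61), 0.25 (clock, from 0.04) and -0.65 (epididymis, from 2.90). With the lowest 50% left out they moved to -0.73 (cytokines), 0.31 (Schwann cell) and -0.58 (skeletal muscle). With no filter they moved to -0.083 (fusion genes) and 0.12 (depot developmental genes, 0.36 with all 22 arrays), and with array weights to -0.19 (glycolysis). Without Gipr-/- array 1 and double-knockout array 1 fusion genes moved to -0.85 and housekeeping genes to -0.0021, and without the 3 arrays clock genes to 0.24. With 1 array left out the medians ran from -0.26 to 0.17 (Schwann cell), -0.75 to -0.33 (glucocorticoid), -0.0077 to 0.39 (clock), -0.36 to 0.26 (cholesterol) and 0.41 to 0.96 (depot developmental). They also ran from -0.83 to -0.32 (general macrophage), -0.42 to -0.21 (lysosome), -0.995 to -0.41 (Fc receptors), -0.83 to -0.23 (complement), -0.73 to -0.23 (chemokines), -0.58 to -0.18 (cytokines), -0.75 to -0.21 (matricellular), 0.047 to 0.66 (interferon), 0.039 to 0.68 (lipogenesis), 0.077 to 0.61 (triglyceride synthesis), 0.055 to 0.44 (branched-chain amino acids), -0.022 to 0.29 (oxidative phosphorylation) and 0.14 to 0.56 (adipokines). The causes were not tested. Of 7263 values of 293 named genes under the alternatives, 12 came past the adjusted threshold. Among genes with an unadjusted p under 0.05 in the main fit, 0 values changed sign. Values of the other named genes changed sign in 79 genes, none of them among the 30 with the smallest p. Movement by at least the spread within groups was counted only for those other genes, and 14 values moved. No paired analysis was possible because the labels give no replicate numbers and do not tie arrays of different groups together.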
